A study of Homo sapiens with 6 samples.

Results

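The BCL2 family decides whether the outer mitochondrial membrane of a cell stays intact or is opened, the step that commits a cell to the intrinsic pathway of apoptosis. The guardians (BCL2, BCL-XL, BCL-W and MCL1) bind and restrain the effectors BAX and BAK, which otherwise form pores in that membrane and release cytochrome c. The BH3-only proteins (BIM, PUMA, NOXA and BID) respond to stress, and they occupy the guardians or activate the effectors. Leukemia cells often depend on 1 or another guardian, which is why BH3 mimetics such as the BCL2 inhibitor venetoclax are used against AML.

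The 10 family genes described here were BCL2, BCL2L1 (encoding BCL-XL), BCL2L2 (BCL-W) and MCL1 among the guardians, BAX and BAK1 as the effectors, and BCL2L11 (BIM), BBC3 (PUMA), PMAIP1 (NOXA) and BID among the BH3-only genes. They were chosen by gene symbol and are 10 of the 61661 rows of the read count table. All 10 passed the filter on low counts, as did 17686 genes in all. On GRCh38, the genes not shown in detail are at chr18:63123346-63320128 (BCL2, minus strand), chr20:31664452-31723989 (BCL2L1, minus), chr14:23298790-23311759 (BCL2L2, plus), chr19:48954815-48961798 (BAX, plus), chr6:33572547-33580293 (BAK1, minus), chr2:111119378-111168447 (BCL2L11, plus), chr18:59899948-59904306 (PMAIP1, plus) and chr22:17734138-17774770 (BID, minus).

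The libraries came from K562, an established erythroid leukemia line from a chronic myeloid leukemia in blast crisis. The paper describes lentiviral infection and puromycin selection for METTL3 knockdown and its control. It does not describe how the shMETTL14 cells were made. The shCTR cells carried a nonsense shRNA and were labelled wild type, the shMETTL3 cells an shRNA against METTL3 and the shMETTL14 cells an shRNA against METTL14. METTL3 and METTL14 form the complex that writes m6A, a methyl mark on adenosines of mRNA. There were 2 libraries per group, 6 in all, and nothing in the labels says that they came from separate cultures, so p-values measure the spread between these libraries, which may be technical. The paper calls the shCTR and shMETTL3 cells stable lines. The groups were compared to learn which mRNAs differ when either subunit of the writer is reduced.

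Library totals ran from 19292574 to 20115304 reads. METTL3 was counted with 1788 and 1728 reads for shCTR, 1031 and 938 for shMETTL3 and 1731 and 1498 for shMETTL14 (log2 fold change -0.87, adjusted p = 3.44e-07 for shMETTL3 against shCTR). METTL14 was counted with 656 and 655 reads for shCTR, 752 and 710 for shMETTL3 and 375 and 404 for shMETTL14 (-0.76, adjusted p = 1.40e-05 for shMETTL14 against shCTR). All 10 markers of the K562 line were above 3 reads, and their summed level was 1921 to 1930 CPM in shCTR, 2081 to 2118 CPM in shMETTL3 and 1891 to 1917 CPM in shMETTL14 cells. Of 7 markers of other blood cells, 2 exceeded 3 reads in any library, LYZ among them, and FLT3 was at 0 in all of them. The summed level of these 7 was 44.7 to 46.4 CPM in shCTR, 19.0 to 20.2 CPM in shMETTL3 and 61.7 to 68.0 CPM in shMETTL14 cells, nearly all of it LYZ. The part of these marker levels in the results on the BCL2 family was not tested.

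Since MCL1 and BBC3 were the family genes that differed between the knockdowns (values follow), the places of GGACT, the commonest core of the m6A consensus, are shown for both. The letters were searched in the sense strand of the longest protein-coding transcript of each gene (GENCODE release 29, GRCh38), with 10 bases on each side, T standing for U, and capitals marking the motif. MCL1 lies on the minus strand at chr1:150574551-150579738, and its transcript ENST00000369026.2 of 3932 nt holds 7 of them, counted from its 5′ end. The motifs at positions 91 (exon 1) and 969 (exon 2) lie in the coding sequence, and the other 5 lie in exon 3, from 69 to 2048 nt past the stop codon.
MCL1 position 91, motif at chr1:150579496-150579500: cgcggtaatcGGACTcaacctctac
MCL1 position 969, motif at chr1:150578267-150578271: ggacaaaacgGGACTggctagttaa
MCL1 position 1182, motif at chr1:150577302-150577306: ttatgcagttGGACTccaagctgta
MCL1 position 1373, motif at chr1:150577111-150577115: ctatggaggaGGACTtttagattta
MCL1 position 1649, motif at chr1:150576835-150576839: caagtgttcaGGACTtttatacctg
MCL1 position 2893, motif at chr1:150575591-150575595: ccttttccttGGACTggtatctttt
MCL1 position 3161, motif at chr1:150575323-150575327: tttagtctgtGGACTccatttaaaa

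BBC3 lies on the minus strand at chr19:47220822-47232766. Its transcript ENST00000439096.2 is 1838 nt long, and all 7 of its motifs lie in exon 4, the first of them in the coding sequence 53 nt before its end and the other 6 between 29 and 278 nt past the stop codon.
BBC3 position 810, motif at chr19:47221851-47221855: tctcatcatgGGACTcctgccctta
BBC3 position 892, motif at chr19:47221769-47221773: tggacgtcagGGACTcggggggcag
BBC3 position 943, motif at chr19:47221718-47221722: ccagcgcgggGGACTttctctgcac
BBC3 position 971, motif at chr19:47221690-47221694: gtagcatactGGACTcccagccctg
BBC3 position 1056, motif at chr19:47221605-47221609: acggagatgcGGACTcctgggtccc
BBC3 position 1102, motif at chr19:47221559-47221563: gacggctgatGGACTcagcatcgga
BBC3 position 1141, motif at chr19:47221520-47221524: gagggggtggGGACTgagccgcccg

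No m6A was measured in these libraries, so each match is a run of letters and not a known methylated site. GGACT occurs in the longest transcript of all 10 genes, from 2 to 7 times, and in 85.4% of the 16662 tested genes that have one. Per kb it was densest in BBC3, with 3.81 matches per kb, a density that 99.0% of those genes lie below. BCL2L1 had 2.30, BAK1 2.26, BID 2.00 and MCL1 1.78 matches per kb, against a median of 0.911 over the tested genes. BCL2 was the sparsest family gene, with 0.402 matches per kb, and only 20.8% of genes lie below it.

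The shRNA against METTL3 has its own sequence, which is shown because a short hairpin can also lower other mRNAs through the seed of its guide. The antisense stem is given with bases 2 to 8 in capitals.
METTL3 shRNA antisense stem: aACAATGGattgttccttggc
The letters complementary to that seed, CCATTGT, were in none of the 10 longest transcripts of the family (0 of 10), and in 18.6% of the tested genes. This reading takes the 5′ end of the guide to be that of the stem as printed. The METTL14 shRNA was not analysed here.

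The order of the mRNA levels was set by comparing CPM per kb of the longest transcript, since longer mRNAs collect more reads (the plot of levels by gene and library). MCL1, a short-lived guardian, was the most abundant, with a mean over the 6 libraries of 77.2 CPM per kb and a range from 66.2 to 93.8. BCL2, the guardian that venetoclax targets, was the least abundant, at 5.65 CPM per kb with a range from 5.08 to 6.22. MCL1 was first and BCL2 last also when the union of all exons was taken as the length.

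Between them, BAX averaged 55.2 CPM per kb (47.6 to 60.0) and BCL2L1 46.6 (43.9 to 50.6). These ranges overlapped, although BAX was above BCL2L1 in 6 of 6 libraries, and with the union of exons BAX was in the fourth place and BCL2L1 was second. PMAIP1 averaged 40.5 CPM per kb (36.7 to 45.5) and BBC3 39.6 (34.5 to 44.6). By this length these neighbours did not differ beyond their spread, with PMAIP1 above BBC3 in 3 of 6 libraries. With the union of exons they did not overlap, with PMAIP1 at 35.3 (32.0 to 39.6) and BBC3 at 22.9 (19.9 to 25.8). BID averaged 22.9 CPM per kb (21.3 to 25.3) and BAK1 17.7 (16.4 to 19.1), without overlap. With the union of exons their order was reversed, with BAK1 at 17.7 and BID at 12.8 (12.0 to 14.2), again without overlap. BCL2L11 averaged 11.9 CPM per kb (10.3 to 13.2) and BCL2L2 11.3 (10.0 to 12.1). These neighbours overlapped, with BCL2L11 the higher in 4 of 6 libraries. With the union of exons BCL2L2 was the higher in 4 of 6. The counts per gene do not separate splice forms, so BCL-XL and BCL-XS, the long and short forms of MCL1, and the 3 main forms of BIM are each summed here.

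**Figure D1:**
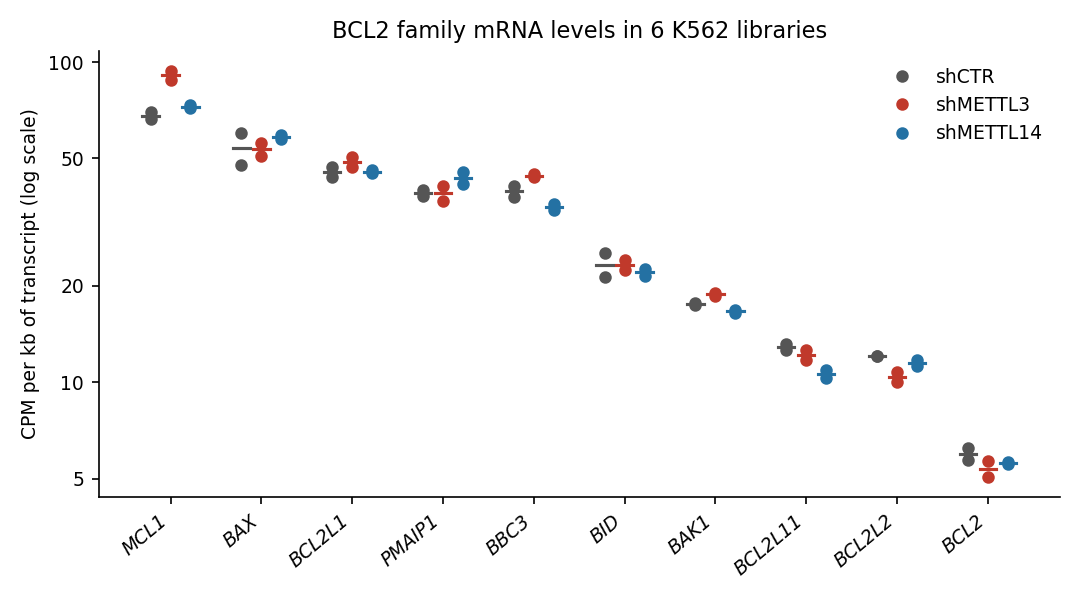
The plot gives CPM per kb of the longest transcript (log axis) for each of the 10 genes, ordered by mean level, with 1 point per library and a short line at each group's mean. MCL1 leads with 66.2 to 93.8 CPM per kb and its shMETTL3 libraries stand above the other 4, while BCL2 is last at 5.08 to 6.22.

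In shMETTL3 cells MCL1 mRNA rose, and it was the only one of the 10 genes to pass the threshold against shCTR. MCL1 was counted with 5428 and 4976 reads for shCTR, 6801 and 7390 for shMETTL3 and 5665 and 5515 for shMETTL14. That is 268 ± 10.5 CPM in shCTR, 358 ± 15.6 CPM in shMETTL3 and 285 ± 4.95 CPM in shMETTL14 cells (mean ± SD, n = 2 each). Both shMETTL3 libraries were above all 4 others, and the shMETTL14 libraries were both above the shCTR libraries.

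The log2 fold change of MCL1 in shMETTL3 cells was 0.42 (standard error 0.0594, 95% interval 0.29 to 0.54), or 1.34-fold, with an adjusted p of 7.47e-05. The adjusted p-values here and after are those of edgeR's quasi-likelihood test, corrected by Benjamini-Hochberg over all 17686 genes, with calls made under 0.05. Of all genes tested, 16.5% were called in this comparison, 8.73% higher and 7.73% lower, so 1 of 10 is a share close to the background. Leaving out any 1 library kept the change of MCL1 between 0.38 and 0.46 on the log2 scale, past the threshold each time. In bulk RNA, a difference in mRNA per cell and a difference in the share of cells that carry it cannot be told apart.

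The other guardians had small differences that did not pass the threshold in shMETTL3 cells. BCL2L2, a guardian best known from the male germ line and from neurons, was counted with 858 and 834 reads for shCTR, 707 and 780 for shMETTL3 and 830 and 794 for shMETTL14. In CPM both shMETTL3 libraries were below the other 4, and the log2 fold change against shCTR was -0.22 (95% interval -0.38 to -0.06, adjusted p = 0.0588). With a trend of GC content and length removed it was -0.26 and was called (adjusted p = 0.00868). The readthrough gene BCL2L2-PABPN1 on the same strand covers 19.4% of the exon bases of BCL2L2 and had 4 to 10 reads per library. PPP1R3E on the opposite strand covers 4.92% of them and had 368 to 419 reads. Reads over bases shared on the same strand cannot be told apart by strand, and the part of both overlaps in the BCL2L2 values was not tested.

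BCL2 was counted with 916 and 816 reads for shCTR, 743 and 848 for shMETTL3 and 816 and 825 for shMETTL14. In CPM the shMETTL3 libraries were both below the shCTR libraries by a narrow margin, at 37.9 and 42.3 CPM against 46.4 and 42.7 CPM, and the log2 fold change was -0.15 (95% interval -0.32 to 0.01, adjusted p = 0.208). BCL2L1, whose BCL-XL protein is a guardian of erythroid cells, was counted with 2260 and 2341 reads for shCTR, 2411 and 2648 for shMETTL3 and 2356 and 2301 for shMETTL14. Its log2 fold change in shMETTL3 cells was 0.11 (95% interval -0.03 to 0.24, adjusted p = 0.290). On the opposite strand, the long noncoding RNA ABALON covers 43.0% of the exon bases of BCL2L1 and had 18 to 36 reads per library. Whether the authors counted by strand is not given in the sources used here, and without strand the reads of such partners cannot be told apart. How reads over shared bases were assigned is not given either, so the low ABALON count does not show that the overlap held few reads. The part of the overlap in the BCL2L1 level, and in the ratios and shares made with it, was not tested.

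Among the guardians the make-up moved with MCL1, as a description of quantities picked after the values were seen and with no test. MCL1 made up 52.9% and 50.6% of the summed CPM per kb of the 4 guardians for shCTR, 58.7% and 58.3% for shMETTL3 and 53.7% and 53.6% for shMETTL14. The ratio of MCL1 to BCL2L1 was 1.59 and 1.41 in shCTR, 1.87 and 1.85 in shMETTL3, and 1.60 and 1.59 in shMETTL14 libraries. The shMETTL3 libraries were the highest in both quantities. The shMETTL14 libraries were above both shCTR libraries in the MCL1 share and overlapped them in the ratio. In both quantities the shCTR libraries lay farther apart than those of either knockdown. The 4 guardians summed to 132 and 131 CPM per kb in shCTR, 150 and 161 in shMETTL3, and 137 and 134 in shMETTL14 libraries.

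**Figure D2:**
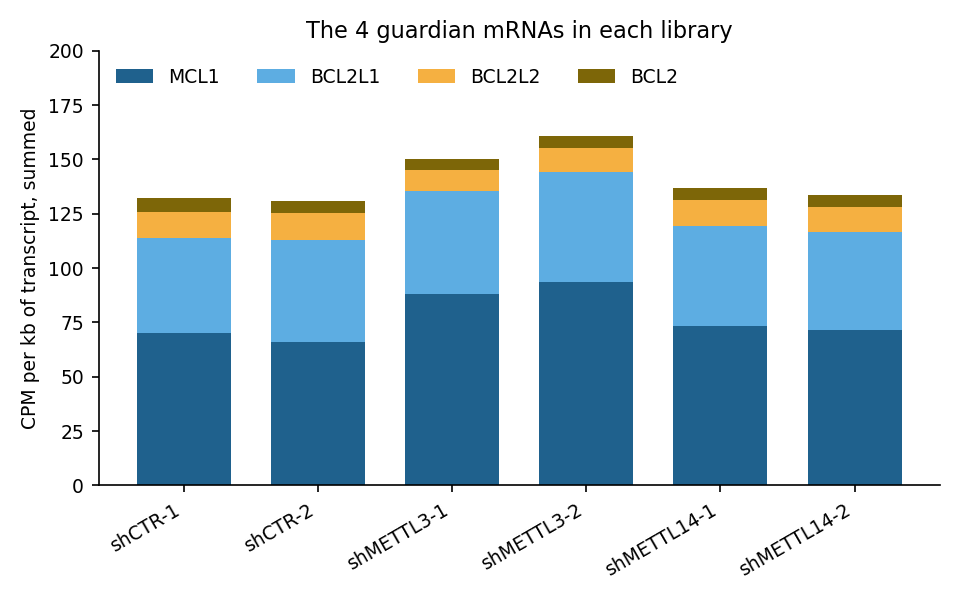
Bars give the summed CPM per kb of the 4 guardian genes in each of the 6 libraries, split by gene, from 0. The bars of shMETTL3 are the tallest, at 150 and 161 CPM per kb, and MCL1 takes 58.7% and 58.3% of them.

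The effectors BAX and BAK1, which oligomerize in the outer membrane, passed the threshold in no comparison. BAX was counted with 1276 and 1557 reads for shCTR, 1361 and 1522 for shMETTL3 and 1578 and 1527 for shMETTL14, and the shCTR libraries spanned the whole range of the 6, at 64.7 and 81.4 CPM. Its log2 fold change was -0.01 in shMETTL3 (adjusted p = 0.973) and 0.12 in shMETTL14 cells (adjusted p = 0.478). The shCTR libraries decided the second value: without shCTR replicate 2 it was 0.29 and called (adjusted p = 0.0163), and without shCTR replicate 1 it was -0.04.

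BAK1 was counted with 759 and 747 reads for shCTR, 827 and 823 for shMETTL3 and 732 and 711 for shMETTL14. The 3 groups did not overlap, with shMETTL3 at 42.2 and 41.1 CPM, shCTR at 38.5 and 39.1 CPM, and shMETTL14 at 37.3 and 36.3 CPM. The log2 fold changes were 0.10 for shMETTL3 (adjusted p = 0.385) and -0.07 for shMETTL14 (adjusted p = 0.631) against shCTR, and 0.18 between the knockdowns (adjusted p = 0.143).

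BCL2L11, whose BIM protein binds every guardian, was the only one of the 10 genes called in shMETTL14 against shCTR cells. It was counted with 1303 and 1316 reads for shCTR, 1203 and 1326 for shMETTL3 and 1057 and 1116 for shMETTL14, or 67.4 ± 1.98, 63.7 ± 3.43 and 55.4 ± 2.22 CPM (mean ± SD, n = 2 each). Both shMETTL14 libraries were below the other 4. BCL2L11 fell by 0.28 on the log2 scale (standard error 0.0704, 95% interval -0.43 to -0.14, adjusted p = 0.0187), to 0.822 of the shCTR level. In this comparison 6.69% of all genes were called, 3.43% higher and 3.26% lower, and 1 of 10 is close to that share.

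The BCL2L11 call rested on both shMETTL14 libraries: without replicate 1 the log2 fold change was -0.24 (adjusted p = 0.273), and without replicate 2 it was -0.32 (adjusted p = 0.0894). On the opposite strand, MIR4435-2HG, a long noncoding RNA named here after its values were seen, covers 10.9% of the exon bases of BCL2L11. It was counted with 1621 and 1477 reads for shCTR, 1629 and 1748 for shMETTL3 and 1236 and 1455 for shMETTL14. Its log2 fold change in shMETTL14 against shCTR cells was -0.22 (adjusted p = 0.105), and it too was lowest in the shMETTL14 libraries; the part of shared reads in the BCL2L11 result was not tested. In shMETTL3 cells the log2 fold change of BCL2L11 was -0.08 (95% interval -0.23 to 0.07, adjusted p = 0.473), with overlapping libraries.

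BBC3, whose PUMA protein is a BH3-only protein that binds all the guardians, lay on opposite sides of shCTR in the knockdowns as fitted, though not with the GC and length trend removed (given with the GC content). It was counted with 1372 and 1443 reads for shCTR, 1582 and 1642 for shMETTL3 and 1296 and 1240 for shMETTL14, or 72.5 ± 4.21, 81.3 ± 0.919 and 64.7 ± 1.92 CPM (mean ± SD, n = 2 each). The 3 groups did not overlap, with shMETTL3 highest and shMETTL14 lowest. Neither difference from shCTR passed the threshold: the log2 fold change was 0.17 in shMETTL3 (95% interval 0.02 to 0.31, adjusted p = 0.103) and -0.16 in shMETTL14 cells (95% interval -0.31 to -0.02, adjusted p = 0.175). The shMETTL3 value was called with library size alone as scaling (0.22, adjusted p = 0.0299) and without shCTR replicate 2 (0.22, adjusted p = 0.0280).

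PMAIP1, whose NOXA protein binds MCL1 with high selectivity, was counted with 1537 and 1419 reads for shCTR, 1569 and 1433 for shMETTL3 and 1589 and 1734 for shMETTL14. The shMETTL14 libraries were the highest, at 81.0 and 88.6 CPM, and the shCTR and shMETTL3 libraries overlapped between 71.5 and 80.0 CPM. The log2 fold change was 0.16 in shMETTL14 (adjusted p = 0.226) and -0.01 in shMETTL3 cells (adjusted p = 0.971). BID, a BH3-only protein cut by caspase-8 to its active form, had 1049 to 1209 reads in the 6 libraries and overlapped in every comparison, with log2 fold changes of -0.00 in shMETTL3 (adjusted p = 0.985) and -0.08 in shMETTL14 cells (adjusted p = 0.633).

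Over the 10 genes, the median log2 fold change was -0.00446 in shMETTL3 and -0.0733 in shMETTL14 against shCTR cells, beside 0.00299 and -0.000140 over all genes tested. The groups did not overlap for 6 genes in the first comparison and 7 in the second, where 56.0% and 48.9% of all genes did not overlap. The median size of the change without its sign was 0.104 and 0.0908 for the 10 genes, against 0.175 and 0.141 for all genes. Both comparisons share the shCTR libraries.

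**Figure D3:**
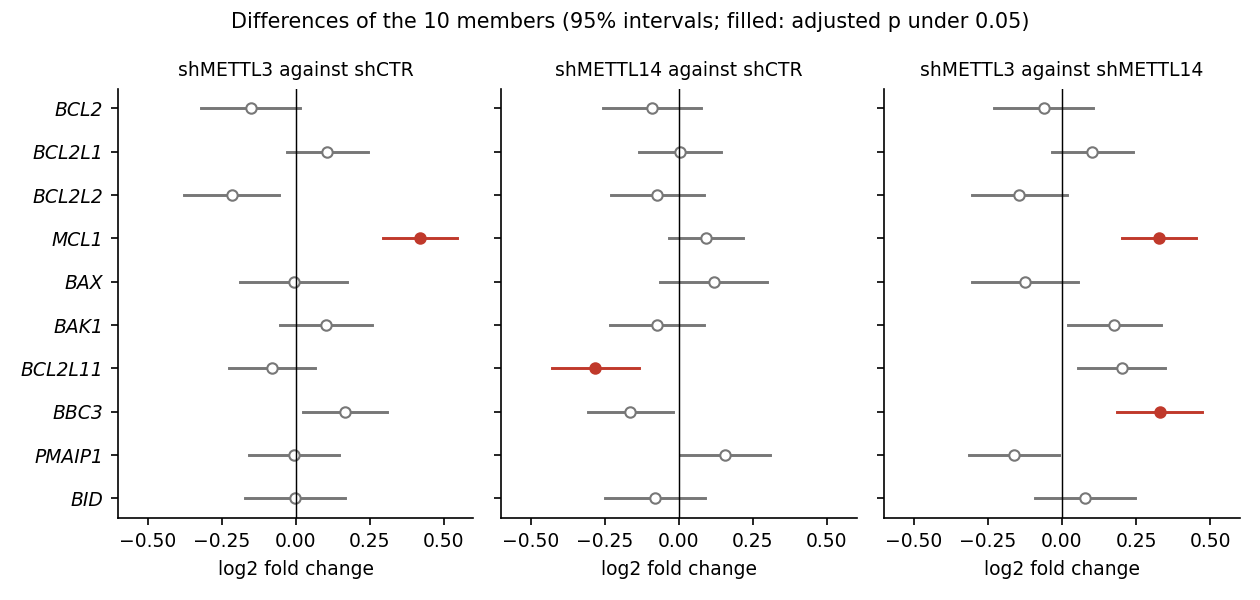
Points give the log2 fold change of each of the 10 genes and lines its 95% interval, in 3 panels for shMETTL3 against shCTR, shMETTL14 against shCTR and shMETTL3 against shMETTL14, with filled red points for an adjusted p under 0.05. The filled points are MCL1 (0.42), BCL2L11 (-0.28), and MCL1 and BBC3 (both 0.33) in that order of panels.

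Compared directly, shMETTL3 and shMETTL14 cells differed in 2 of the 10 genes, MCL1 and BBC3, both higher in shMETTL3 cells. MCL1 was 1.25-fold higher (log2 fold change 0.33, standard error 0.0593, 95% interval 0.20 to 0.45, adjusted p = 8.33e-04) and BBC3 1.26-fold higher (0.33, standard error 0.0681, 95% interval 0.19 to 0.47, adjusted p = 0.00263). Of all genes, 12.1% were called here, 6.65% higher and 5.49% lower, and 2 of 10 is little above that share. MCL1 is a guardian and BBC3 encodes a BH3-only protein that binds it.

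The MCL1 difference between the knockdowns passed the threshold with each library left out, whereas BBC3 lost it without shMETTL14 replicate 2 (0.30, adjusted p = 0.0702) and was at 0.22 with the GC and length trend removed. BCL2L11 was 0.20 higher on the log2 scale in shMETTL3 than in shMETTL14 cells, an amount that did not pass (adjusted p = 0.0701); without either shCTR library it was called (adjusted p = 0.0325 without replicate 1 and 0.0316 without replicate 2). MIR4435-2HG, on the strand opposite BCL2L11, was called higher in the same comparison (0.31, adjusted p = 0.00990). PMAIP1 lay the other way, at -0.16 (adjusted p = 0.167). The groups did not overlap for 8 of the 10 genes, against 56.7% of all genes, and the median log2 fold change was 0.0895, against -0.00166.

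The quantities that follow are ratios within a library, with no test. The summed level of the 4 BH3-only genes was divided by that of the 4 guardians. The quotient was 0.872 ± 0.0375 for shCTR, 0.763 ± 0.0414 for shMETTL3 and 0.824 ± 0.0357 for shMETTL14 (mean ± SD, n = 2 each), with shMETTL3 lowest. The BH3-only sum itself was not lower there. The shMETTL3 libraries had 119.1 and 118.0 CPM per kb, against 111.7 and 117.7 for shCTR and 109.3 and 113.5 for shMETTL14. The low shMETTL3 quotient thus went with the larger guardian sum, 150 and 161 CPM per kb, and is no separate loss of BH3-only mRNA. The ratio of BCL2L11 to MCL1 was 0.180 and 0.199 in shCTR, 0.133 and 0.135 in shMETTL3, and 0.140 and 0.152 in shMETTL14 libraries. This ratio is made of the 2 genes called against shCTR, MCL1 in shMETTL3 and BCL2L11 in shMETTL14 cells. That both knockdowns were below shCTR in it follows from those calls and is no separate result. The uncalled log2 fold changes were 0.09 for MCL1 in shMETTL14 and -0.08 for BCL2L11 in shMETTL3 cells. The ratio of BBC3 to PMAIP1 was 0.946 and 1.08 in shCTR, 1.07 and 1.21 in shMETTL3, and 0.864 and 0.758 in shMETTL14 libraries.

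Several of these values moved when a trend of GC content and transcript length was removed, and the parts of GC and of length were not tested apart. BBC3 has the most GC of the 10, with 69.7%, above 99.5% of the tested genes, and PMAIP1 the least, with 37.2%. With this smooth trend taken out of each library, BBC3 went from 0.17 to -0.03 in shMETTL3 cells (adjusted p = 0.743) and to -0.25 in shMETTL14 cells (adjusted p = 0.00693), where it was then called. Between the knockdowns BBC3 went from 0.33 to 0.22 and kept its call (adjusted p = 0.00972). PMAIP1 went to 0.22 in shMETTL14 cells and was called there (adjusted p = 0.0196). MCL1, at 45.1% GC, and BCL2L11 kept their calls.

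**Figure D4:**
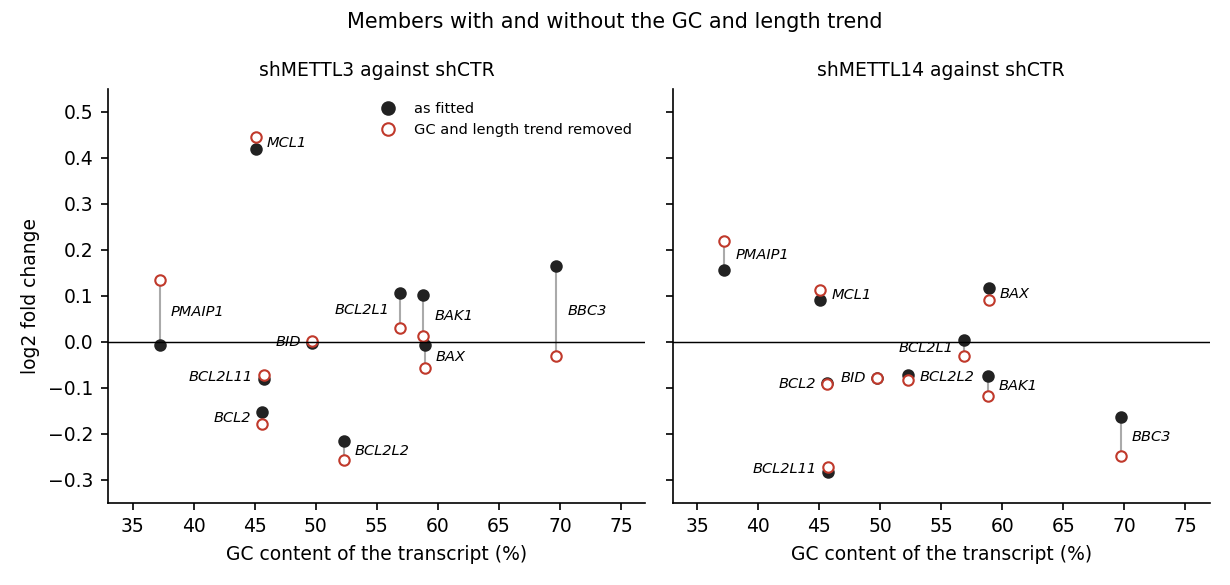
Points give the log2 fold change of each of the 10 genes against the GC content of its longest transcript in percent, as fitted (black) and with the GC and length trend removed (red, open), in a panel each for shMETTL3 and shMETTL14 against shCTR. BBC3 at 69.7% GC moves from 0.17 to -0.03 in the first panel, whereas MCL1 at 45.1% is at 0.42 as fitted.

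The gene most like MCL1 over the 6 libraries was JADE3 (Pearson r = 0.995 of log2 CPM), followed by DHRS7 and NTPCR (0.992 each), among 9962 genes with a mean of at least 10 CPM. The 6 points share libraries, scaling and groups, and 113 genes reached 0.95 or more, so the likeness is a description.

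Of 13 further family genes, 9 passed the filter on low counts, and 4 of these were called in shMETTL3 against shCTR cells, 3 higher and 1 lower, beside 16.5% of all genes called (8.73% higher, 7.73% lower). HRK, a BH3-only gene, was counted with 24 and 25 reads for shCTR, 72 and 53 for shMETTL3 and 18 and 12 for shMETTL14, and rose by 1.32 on the log2 scale (adjusted p = 0.00307). BCL2L12 rose by 0.38 (adjusted p = 0.00112) and BOK, an effector-like member, by 0.36 (adjusted p = 0.0271). BNIP3, a mitophagy receptor related to the BH3-only proteins, fell by 0.27 (adjusted p = 0.0393).

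Only BCL2L12 of these 4 passed with each library left out. HRK was lost without shMETTL3 replicate 1 (adjusted p = 0.0653). BOK was lost without shCTR replicate 1 (0.226), shMETTL3 replicate 2 (0.275) or shMETTL14 replicate 1 (0.0538), as adjusted p-values. BNIP3 was lost without any 1 of the shCTR or shMETTL3 libraries, with adjusted p-values from 0.0574 to 0.297. DESeq2 called neither BOK (0.0811) nor BNIP3 (0.0947). BOK was also lost with no filter (0.0689), the compared groups only (0.0530) and the GC and length trend removed (0.178), and BNIP3 with no filter (0.0863) and library size alone (0.101).

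In shMETTL14 against shCTR cells 0 of the 9 were called by edgeR and 0 by DESeq2, beside 6.69% of all genes, and 3 had an unadjusted p under 0.05. BMF, a BH3-only gene, was counted with 41 and 30 reads for shCTR and 58 and 62 for shMETTL14, without overlap (log2 fold change 0.74, adjusted p = 0.0833). Between the knockdowns 4 of 9 were called, beside 12.1% of all genes: HRK (2.03, adjusted p = 1.34e-04), BCL2L12 (0.27, adjusted p = 0.0180) and BCL2L13 (0.22, adjusted p = 0.0212) were higher in shMETTL3 cells, and the mitophagy receptor BNIP3L was lower (-0.40, adjusted p = 0.00247). HRK passed with each library left out, whereas BCL2L12 was lost without shMETTL3 replicate 2 (0.273) or either shMETTL14 library (0.135 and 0.162), BNIP3L without shMETTL3 replicate 2 (0.0947) or shMETTL14 replicate 2 (0.0922), and BCL2L13 without any 1 of the 4 compared libraries (0.0844 to 0.258). BCL2A1, BCL2L10, BCL2L14 and BIK were below the filter, with 0 to 7 reads per library. The median log2 fold change of the 9 was 0.16 in shMETTL3 and 0.17 in shMETTL14 against shCTR cells and -0.10 between the knockdowns, beside the medians near 0 over all genes given above.

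**Figure D5:**
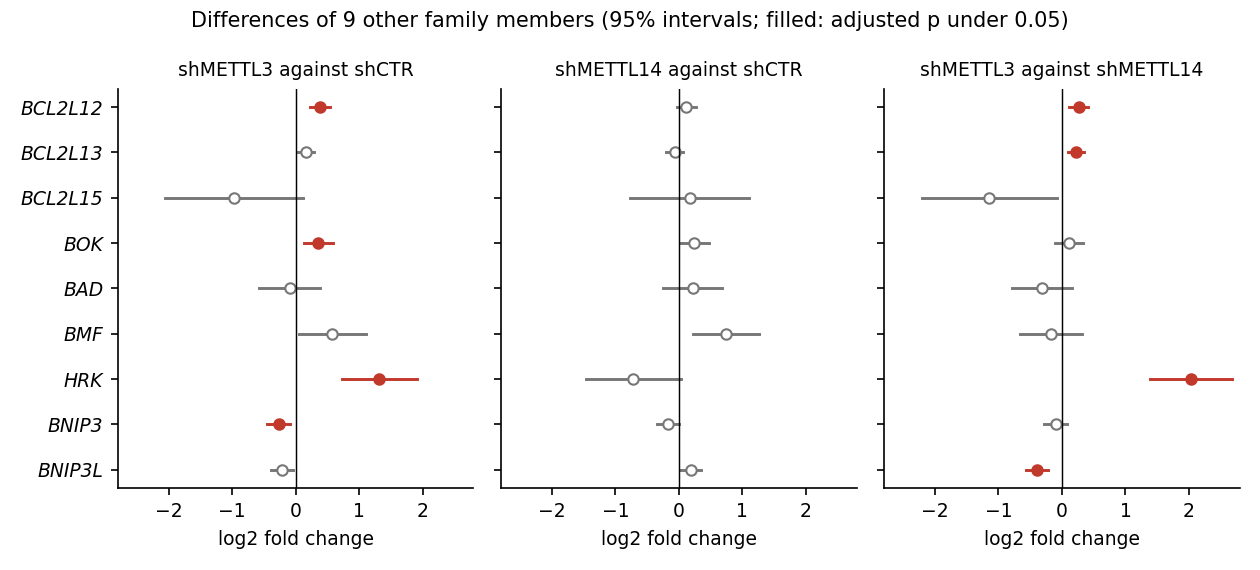
Points give the log2 fold change of the 9 further family genes that passed the filter and lines its 95% interval, in 3 panels for the 3 comparisons, with filled red points for an adjusted p under 0.05. HRK stands farthest to the right, at 1.32 in shMETTL3 against shCTR and 2.03 between the knockdowns, while the middle panel holds 0 filled points.

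Of 13 genes that act downstream of the outer membrane (the apoptosome, caspases and their inhibitors), 2 were called in shMETTL3 against shCTR cells, 1 higher and 1 lower, beside 16.5% of all genes. AIFM1, which encodes a flavoprotein of the intermembrane space, fell by 0.21 (adjusted p = 0.0225). In shMETTL14 cells AIFM1 alone was called, 1 of 13 beside 6.69% of all genes, and fell by 0.26 (adjusted p = 0.0165). AIFM1 was lost in shMETTL3 cells without either shMETTL3 library (adjusted p = 0.138 and 0.164), with library size alone as scaling (0.0879) and in shMETTL14 cells without shMETTL14 replicate 2 (0.269). Between the knockdowns 2 of the 13 were called higher and 1 lower, beside 6.65% and 5.49% of all genes. The caspase inhibitor XIAP was higher in shMETTL3 cells (0.25, adjusted p = 0.0264), and the initiator caspase gene CASP9 was lower (-0.23, adjusted p = 0.0463). XIAP was lost without either shMETTL3 library (0.164 and 0.123) or shMETTL14 replicate 1 (0.388), and CASP9 without any 1 of the 4 (0.185 to 0.277). DESeq2 called neither XIAP (0.0516) nor CASP9 (0.150), both were lost with no filter (0.0570 and 0.110), and CASP9 also with library size alone (0.0870). The medians of the 13 were -0.04, 0.01 and -0.03 on the log2 scale for the 3 comparisons in that order.

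Among 15 transcription factors that act on family genes, 5 were called in shMETTL3 against shCTR cells, 3 higher and 2 lower, beside 16.5% of all genes (8.73% higher, 7.73% lower). E2F1 rose by 0.49 (adjusted p = 8.40e-04) and passed with each library left out, and TP73 (0.39, adjusted p = 0.0307) and FOXO3 (0.31, adjusted p = 0.00965) were also higher. MYB (-0.29, adjusted p = 0.00214) and MYC (-0.20, adjusted p = 0.0270) were lower. These last 4 were each lost without shMETTL3 replicate 2, with adjusted p-values from 0.0705 to 0.309. TP73 was also lost without shCTR replicate 1 (0.146) or shMETTL14 replicate 1 (0.0501), by DESeq2 (0.112), with no filter (0.0796) and with the GC and length trend removed (0.158), and MYC without shCTR replicate 2 (0.0529) or shMETTL3 replicate 1 (0.301) and with library size alone (0.112) or the compared groups only (0.0508).

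In shMETTL14 cells 3 of the 15 were called, beside 6.69% of all genes, and all 3 were lower, with JUN (-0.60, adjusted p = 0.00250) and MYB (-0.26, adjusted p = 0.00853) among them. JUN was lost without shMETTL14 replicate 1 (adjusted p = 0.106), and MYB without either shMETTL14 library (0.0924 and 0.121). DESeq2 did not call JUN (0.0635). Between the knockdowns 5 of the 15 were called, beside 12.1% of all genes, and all 5 were higher in shMETTL3 cells, with JUN (0.58, adjusted p = 0.00161) and E2F1 (0.37, adjusted p = 0.00718) among them. JUN was lost without shMETTL3 replicate 1 (0.0854) or shMETTL14 replicate 1 (0.0672), and E2F1 without either shMETTL3 library (0.0575 and 0.0630) or shMETTL14 replicate 1 (0.144). DESeq2 did not call JUN (0.0592). For the 15 factors the 3 medians were 0.02, -0.07 and 0.15.

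Of 13 genes whose proteins bind, modify or degrade family proteins, 2 were called in shMETTL3 against shCTR cells, beside 16.5% of all genes. DYNLL2, a dynein light chain that binds BMF, rose by 0.21 (adjusted p = 0.0320), and TPT1, which encodes a binding partner of MCL1, fell by 0.20 (adjusted p = 0.0213). In shMETTL14 cells CASP8, whose protease cuts BID, was the 1 gene of 13 called, beside 6.69% of all genes, and rose by 0.44 (adjusted p = 0.00832). CASP8 was counted with 352 and 333 reads for shCTR and 452 and 485 for shMETTL14, and was lost without either shMETTL14 library (0.0572 and 0.134). DYNLL2 was lost without shMETTL3 replicate 2 (0.397), shCTR replicate 1 (0.113) or either shMETTL14 library (0.0699 and 0.0637), and also with no filter (0.0692) and with the compared groups only (0.0634). TPT1 was lost without either shMETTL3 library (0.180 and 0.135) and with library size alone (0.0917). Between the knockdowns 0 of 13 were called by edgeR and 0 by DESeq2, beside 12.1% of all genes, with 3 at an unadjusted p under 0.05. The 3 medians of these 13 genes were -0.01, 0.04 and -0.01.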

How the data were processed

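RNA-seq of 6 K562 libraries was analysed, 2 each of shCTR, shMETTL3 and shMETTL14 cells, grouped by the submitters' labels. The authors deposited 1 table of counts, whole reads per gene that were not normalized. The submitters' processing notes name hg38 and HTSeq 0.6.1; the aligner, the annotation and the strand setting are not given in the sources used here. mRNA was enriched by its poly(A) tail and amplified by PCR. No UMIs are named, so precision covers these libraries only.

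Of the identifiers, 56558 were named from a gene table and 497 from GENCODE release 29, and 4606 had no symbol. With edgeR 4.0.16 in R 4.3.3, filterByExpr (minimum count 10), TMM scaling and the quasi-likelihood test were run in 1 fit over all 6 libraries (3 residual degrees of freedom), with Benjamini-Hochberg adjustment over 17686 genes. CPM are TMM-scaled; CPM per kb used the longest protein-coding transcript. The steps were tested on simulated data with changes larger than those of the 10 genes. Recovery of changes as small as theirs was not tested. Intervals are at 95%.

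The named genes were the 10 members and, per list and comparison, up to 3 called genes in each direction with the largest change and at least 10 reads in every library compared. Members, lists and tests were chosen with earlier results of these data known. Alternatives were DESeq2 1.42.0, its size factors, library size alone, no filter, the compared groups only, a replicate block, removal of a GC and length trend (mgcv 1.9.3), a fold-change threshold of 1.2, other transcript lengths, and each library left out. Some genes of the lists are counted but not reported here by name.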

Additional observations from a re-analysis of the deposited data

Results flagged for a closer look

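Differences that passed the threshold between shMETTL3 and shMETTL14 cells were flagged. In these genes the 2 knockdowns differed from each other, whether or not either passed the threshold against shCTR. Within the 10 family genes these were MCL1 (0.33 on the log2 scale) and BBC3 (0.33). Among the further family genes they were HRK (2.03), BCL2L12 (0.27), BCL2L13 (0.22) and BNIP3L (-0.40). Downstream of the outer membrane they were XIAP (0.25) and CASP9 (-0.23), and among the transcription factors JUN (0.58) and E2F1 (0.37). Of these, BBC3, BCL2L13, BNIP3L, XIAP and CASP9 passed the threshold against shCTR in neither knockdown. With 2 libraries per group, no test for a single outlying library could be made. The 2 shCTR libraries differed more from each other than the 2 of either knockdown. The mean chi-square per gene between the 2 libraries of a group was 5.52 in shCTR, 3.10 in shMETTL3 and 2.59 in shMETTL14. Both comparisons against control rest on the shCTR libraries.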

How the results depend on the processing

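MCL1 kept its direction and its call in shMETTL3 against shCTR cells under every alternative run, with log2 fold changes of 0.38 to 0.46 when a library was left out. Against the 1 gene called there, library size alone called 2 (BBC3 added), removal of the GC and length trend 2 (BCL2L2 added), and leaving out a library 1 to 2. In shMETTL14 against shCTR cells the 1 call became 3 without the GC and length trend, 0 under the fold threshold of 1.2, and 0 to 2 with a library left out. Between the knockdowns the 2 calls became 0 under the fold threshold and 1 to 3 with a library left out. Under the fold threshold MCL1 had an adjusted p of 0.0486 against shCTR. Of the list genes named, only HRK in shMETTL3 against shCTR cells (0.0134) and HRK and JUN between the knockdowns (4.35e-04 and 0.0339) kept their calls under it. The replicate number used as a block left 1, 1 and 3 calls, with BCL2L11 added between the knockdowns (adjusted p = 0.0477), as it also was with library size alone (0.0360), the compared groups only (0.0276) and the GC and length trend removed (0.0334). Over all genes the block called 3264, 1459 and 2478, against 2912, 1184 and 2148 without it. Deviations of same-numbered libraries had correlations of 0.0614, 0.00511 and -0.0200. These are taken over all genes and cannot exclude a pairing that acts on few of them. Small values turned sign. In shMETTL3 against shCTR cells, library size alone gave BAX 0.0492, PMAIP1 0.0495 and BID 0.0531, and removal of the GC and length trend gave BBC3 -0.0314, PMAIP1 0.14 and BID 0.0017. With a library left out, BAX ran from -0.17 to 0.17, PMAIP1 from -0.0884 to 0.0748 and BID from -0.13 to 0.12. In shMETTL14 against shCTR cells, BCL2L1 was -0.0003 without a filter and -0.03 without the GC and length trend, and with a library left out BCL2L1 ran from -0.0440 to 0.0516, BAX from -0.0404 to 0.29 and BID from -0.20 to 0.0493. Between the knockdowns BCL2 ran from -0.14 to 0.0178. The causes were not tested. Library size alone also moved the share of all calls that were higher from 53.0% to 71.7% in shMETTL3 and from 51.3% to 62.8% in shMETTL14 against shCTR cells, and from 54.8% to 65.0% between the knockdowns. Over all genes DESeq2 called 1881, 763 and 1327 against 2912, 1184 and 2148 by edgeR, and the fold threshold 685, 229 and 721; with no filter 766 were called in shMETTL14 against shCTR cells. With a library left out these counts ran from 1102 to 3569, 341 to 1913 and 942 to 2953. Of the further family genes DESeq2 called 2 against 4 in shMETTL3 cells, of the downstream genes 1 against 2 there and 1 against 3 between the knockdowns, and of the transcription factors 2 against 5 between the knockdowns. A difference whose interval includes 0 was not told from 0 with these libraries, and the smallest difference they could show was not measured.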
